A study of Macaca mulatta with 10 samples.

Results

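The enzymes that copy, write and remove DNA methylation were followed in the testis of juvenile male rhesus macaques (Macaca mulatta) given pituitary hormones. The set held 10 genes, chosen by name: the maintenance genes UHRF1, UHRF2, DNMT1 and HELLS, the de novo genes DNMT3A, DNMT3B and DNMT3L, and the removal genes TET1, TET2 and TET3. All 10 were found among the 26813 loci of the deposited count table, each as 1 locus, and 13841 of those loci stood for a gene symbol. Total RNA from pieces of the right testis was sequenced by stranded RNA-seq in 10 wild type animals that had received pulses of vehicle or of FSH and LH, the gonadotropins that act on Sertoli cells and Leydig cells. The vehicle group held TP07, TP09 and TP11, aged 24, 14 and 15 months, and the labels do not say how long vehicle was given. The 48 h group held TP08, TP10 and TP12, aged 22, 14 and 15 months, and the 96 h group held TP15, TP16, TP17 and TP18, all aged 14 months. All 3 groups share the tissue and genotype, and each library is 1 animal. The question of the series is which genes change when undifferentiated spermatogonia, the earliest male germ cells of this age, start to differentiate.

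DNA methylation is placed on cytosines of CpG dinucleotides, and each round of replication leaves the new strand without it. UHRF1 recognises the half-methylated DNA behind the replication fork and recruits DNMT1, which methylates the new strand, while HELLS remodels nucleosomes so that methylation can be kept in packed chromatin. DNMT3A and DNMT3B place new methylation, DNMT3L is a cofactor without catalytic activity that in mice is needed to methylate the genome of male germ cells, and the TET enzymes oxidise methylcytosine as the first step of its removal. Only transcripts were measured here, not methylation, protein or enzyme activity. The tissue is a mixture of cells, so fewer cells of a type and less RNA per cell cannot be told apart in any value that follows.

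Library totals over the kept loci ran from 21824233 to 30375928 counts. The members had from 99 counts, for DNMT3L in its lowest library, to 4196 counts, for UHRF2 in its highest. Levels are counts scaled to a common library size (CPM, with TMM scaling). A limit of 3 counts, which a count of 0 allows, corresponds to 0.0988 to 0.137 CPM, so all members lay far above it. Sertoli cell markers summed to 2503 to 3089 CPM in vehicle, 2687 to 3167 at 48 h and 2437 to 2887 at 96 h, and germ cell markers were present in every library. Leydig cell markers were higher after gonadotropin, with 6 of 7 called at 48 h and 6 of 7 at 96 h. Of 10 Sertoli cell markers 3 were called higher at 48 h, and 4 higher and 1 lower at 96 h, which became 1 and 2 with upper-quartile scaling. Of 6 peritubular markers 3 and 4 were called higher at these times, and the 4 became 1 with age class as a block and 1 without the animals over 20 months. Beside these counts, 14.7% of the loci with a symbol were called higher and 3.32% lower at 48 h, and 17.4% and 6.89% at 96 h. Macrophage markers summed to 90.5 to 198.4 CPM in vehicle, 155.1 to 250.8 at 48 h and 191.0 to 375.4 at 96 h. A member was called when the adjusted p of edgeR's quasi-likelihood test was under 0.05 over all loci. The 96 h animals carry the highest animal numbers and a single age, so age or a batch by animal number cannot be told apart from the 96 h treatment in full. Both gonadotropin groups were compared with the same vehicle animals.

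After 48 h of gonadotropin, 5 of the 10 members were called against vehicle. UHRF1, DNMT1 and HELLS rose, while UHRF2 and TET2 fell. Beside this, 8.53% of all loci were called higher and 3.67% lower, and among loci with a gene symbol 14.7% were called higher and 3.32% lower. For 6 members (these 5 and DNMT3A) no library of 1 group lay within the range of the other, beside 36.1% of all loci. After 96 h, 4 members were called against vehicle: UHRF1, DNMT1 and HELLS rose and DNMT3L fell. Here 10.6% of all loci were called higher and 6.89% lower, and 17.4% of symbol loci were called higher and 6.89% lower, so that 1 lower member in 10 is near the background. The libraries did not overlap for 5 members, UHRF1, DNMT1, HELLS, UHRF2 and DNMT3L, beside 30.7% of all loci. From 48 h to 96 h edgeR called 0 members. An unadjusted p under 0.05 was found for 6 members, beside 5614 of all 26813 loci. DESeq2 called 2 there, the exact test of edgeR called 1 and voom called 0. In that comparison 0.817% of all loci were called higher and 0.25% lower, and 1.26% of symbol loci were called higher and 0.448% lower. The libraries did not overlap for 3 members, UHRF1, UHRF2 and HELLS, all higher at 96 h, beside 16.5% of all loci. Upper-quartile scaling turned the split of all loci from 2288 higher and 985 lower to 1392 and 1732 at 48 h, and from 2836 and 1848 to 1687 and 3532 at 96 h, with the same members called and TET2 gained as lower at 96 h. The median log2 fold change of the 10 members was -0.08 at 48 h and 0.18 at 96 h against vehicle, beside 0.08 and 0.08 for symbol loci.

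**Figure D1:**
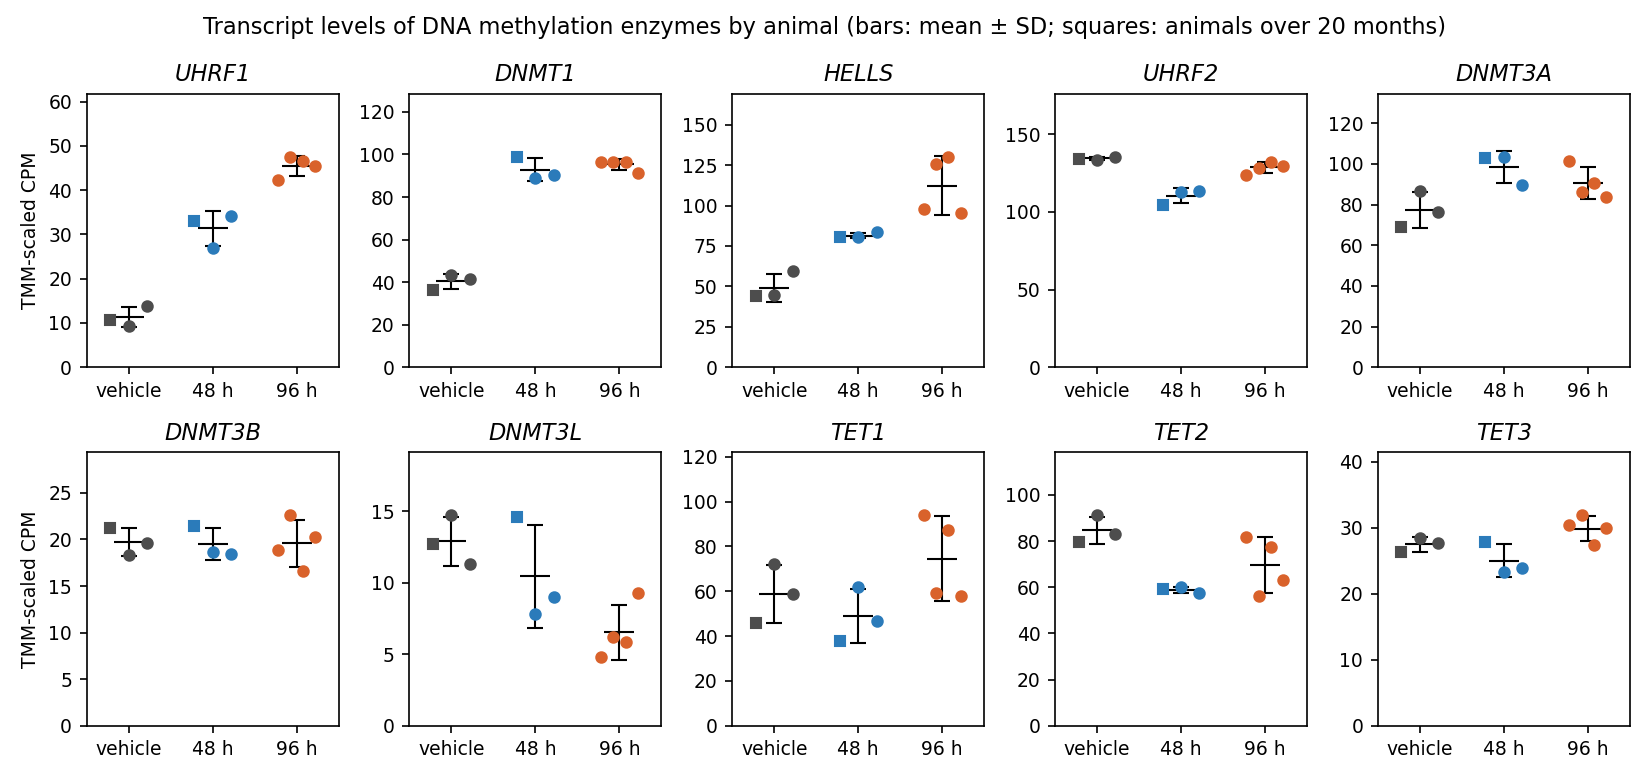
TMM-scaled CPM (vertical axis, from 0) of the 10 members in each animal, by group on the horizontal axis. Points are animals, squares are the 2 animals over 20 months, and bars give the mean ± SD. UHRF1 stands at 9.34 to 13.8 CPM in vehicle, 26.8 to 34.3 at 48 h and 42.3 to 47.6 at 96 h, with no overlap, while DNMT3B covers much the same range in all groups.

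UHRF1, the reader of half-methylated DNA, showed the largest fold change of the 10 members in both comparisons with vehicle. Its locus lies on rheMac8 chromosome 19, from 5020567 to 5119093 on the plus strand, and has 6 transcript models with 5409 merged exon bases. In vehicle it was measured at 10.7 CPM in TP07, 9.34 in TP09 and 13.8 in TP11. At 48 h it stood at 32.9 CPM in TP08, 26.8 in TP10 and 34.3 in TP12. The values after 96 h were 42.3 CPM in TP15, 47.6 in TP16, 46.6 in TP17 and 45.5 in TP18. The 3 groups did not overlap at any step: the highest vehicle animal lay below the lowest 48 h animal, which in turn the whole 96 h group exceeded. Group means, with SD over 3, 3 and 4 animals, were 11.3 ± 2.27 CPM, 31.3 ± 3.96 and 45.5 ± 2.3. UHRF1 was 2.78-fold higher at 48 h than in vehicle, or 1.48 ± 0.15 on the log2 scale (with its SE, as throughout for differences; edgeR adjusted p = 0.00049). At 96 h it was 4.03-fold higher, or 2.01 ± 0.15 on the log2 scale (edgeR adjusted p = 6.85e-05). From 48 h to 96 h the log2 difference was 0.54 ± 0.14, which missed the threshold (edgeR adjusted p = 0.0889), and DESeq2, the exact test and a fit with age class as a block called it. The locus joins the named models with 1 unnamed model of 710 exon bases, whose reads cannot be separated from those of UHRF1.

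DNMT1, the maintenance methyltransferase, rose at both times. The locus is on chromosome 19, from 10141560 to 10203690 on the minus strand, with 8 models and 5720 merged exon bases. Vehicle animals had 36.5 CPM in TP07, 43.3 in TP09 and 41.2 in TP11. The 48 h animals had 99.0 CPM in TP08, 89.1 in TP10 and 90.4 in TP12. After 96 h it had 96.6 CPM in TP15, 96.7 in TP16, 96.5 in TP17 and 91.4 in TP18. Every gonadotropin animal lay above every vehicle animal, and the 48 h and 96 h ranges overlapped. The log2 fold change was 1.20 ± 0.09 at 48 h (edgeR adjusted p = 0.000138) and 1.24 ± 0.08 at 96 h (edgeR adjusted p = 6.29e-05), or 2.3-fold and 2.36-fold. Between 96 h and 48 h it was 0.04 ± 0.08 (edgeR adjusted p = 0.811). The calls of UHRF1 and DNMT1 against vehicle held in all 19 alternatives at 48 h and all 20 at 96 h, leaving out each animal included. These tallies, and those of the other members, include a low-count filter that dropped 0 loci, so its values repeat the main fit. They also include summed loci of a symbol, which left the members' counts unchanged because each has 1 locus.

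HELLS, the remodelling helicase, also rose at both times. Its locus is on chromosome 9, from 89775728 to 89825944 on the plus strand, with 5 models and 6394 merged exon bases. It was measured in vehicle at 43.9 CPM in TP07, 44.5 in TP09 and 59.3 in TP11. At 48 h the values were 80.5 CPM in TP08, 80.4 in TP10 and 83.4 in TP12, a spread of 1.71 (SD) around 81.5. The later group was at 97.7 CPM in TP15, 125.7 in TP16, 130.3 in TP17 and 95.3 in TP18, with TP16 and TP17 well above the other 2. All 3 ranges were separate. On the log2 scale HELLS rose by 0.73 ± 0.15 at 48 h (edgeR adjusted p = 0.0103), or 1.65-fold, and by 1.19 ± 0.14 at 96 h (edgeR adjusted p = 0.000594), or 2.28-fold. The 48 h call was lost without the 2 animals over 20 months (log2 fold change 0.66, adjusted p = 0.102) and at a threshold of 0.01. The 96 h call held in all 20 alternatives. The difference of 0.46 ± 0.14 between 96 h and 48 h missed the threshold (edgeR adjusted p = 0.124).

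UHRF2, the paralogue of UHRF1, fell at 48 h and was the most abundant member per length in vehicle animals. The gene is on chromosome 15, from 77922669 to 78023015 on the minus strand, with 11 models and 7850 merged exon bases. In mouse cells UHRF2 does not replace UHRF1 in recruiting DNMT1. Vehicle levels were nearly the same in the 3 animals, at 134.1 CPM in TP07, 133.7 in TP09 and 135.6 in TP11. They were 104.7 CPM in TP08, 113.0 in TP10 and 113.5 in TP12 at 48 h. At 96 h they were 124.1 CPM in TP15, 128.5 in TP16, 132.3 in TP17 and 129.9 in TP18. The vehicle animals were highest, the 96 h animals came next and the 48 h animals were lowest, with no overlap. UHRF2 fell by 0.28 ± 0.07 on the log2 scale at 48 h (edgeR adjusted p = 0.0227), a call that 10 of 19 alternatives kept. It was lost at a threshold of 0.01, with the exact test, with the 2 groups fitted alone, without the animals over 20 months (adjusted p = 0.188), and when any of 5 of the 6 animals was left out. The 48 h log2 fold change was -0.25 without the animals over 20 months and -0.30 to -0.25 when each animal was left out. The 96 h difference from vehicle was -0.06 ± 0.07 (edgeR adjusted p = 0.524). A separate locus annotated as a UHRF2 pseudogene had 1.17 to 7.23 CPM, and an unnamed locus on the other strand overlaps 8.8% of the merged exon bases of UHRF2.

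The ratio of UHRF1 to UHRF2 within each library does not depend on how libraries are scaled. It was 0.0795 in TP07, 0.0699 in TP09 and 0.102 in TP11. In the 48 h animals the ratio was 0.314 in TP08, 0.238 in TP10 and 0.302 in TP12, and in the 96 h animals it was 0.341, 0.370, 0.352 and 0.350. No group overlapped another. The mean log2 difference was 1.77 ± 0.20 at 48 h (exact permutation test, two-sided, p = 0.1) and 2.1 ± 0.16 at 96 h (exact p = 0.0571). These are the smallest p that 3 against 3 and 3 against 4 animals can give, so none of the 54 ratio tests, over 18 ratios and 3 comparisons, could pass 0.05, and the lowest adjusted p was 0.14.

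Within the maintenance machinery the members did not keep a fixed proportion. The ratio of UHRF1 to DNMT1 counts was 0.216 to 0.334 in vehicle, 0.301 to 0.379 at 48 h and 0.437 to 0.497 at 96 h. Vehicle and 48 h animals overlapped, and the 96 h animals lay above both groups, by a log2 difference of 0.79 ± 0.19 from vehicle and 0.50 ± 0.11 from 48 h (exact permutation p = 0.0571 for each). The ratio of HELLS to DNMT1 was 1.03 to 1.44 in vehicle, 0.814 to 0.923 at 48 h and 1.01 to 1.35 at 96 h. Here the 48 h animals were the low group and the other groups overlapped. The log2 difference was -0.46 ± 0.15 at 48 h against vehicle (exact permutation p = 0.1), -0.06 ± 0.18 at 96 h against vehicle (exact permutation p = 0.8) and 0.41 ± 0.12 between 96 h and 48 h (exact permutation p = 0.0571).

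**Figure D2:**
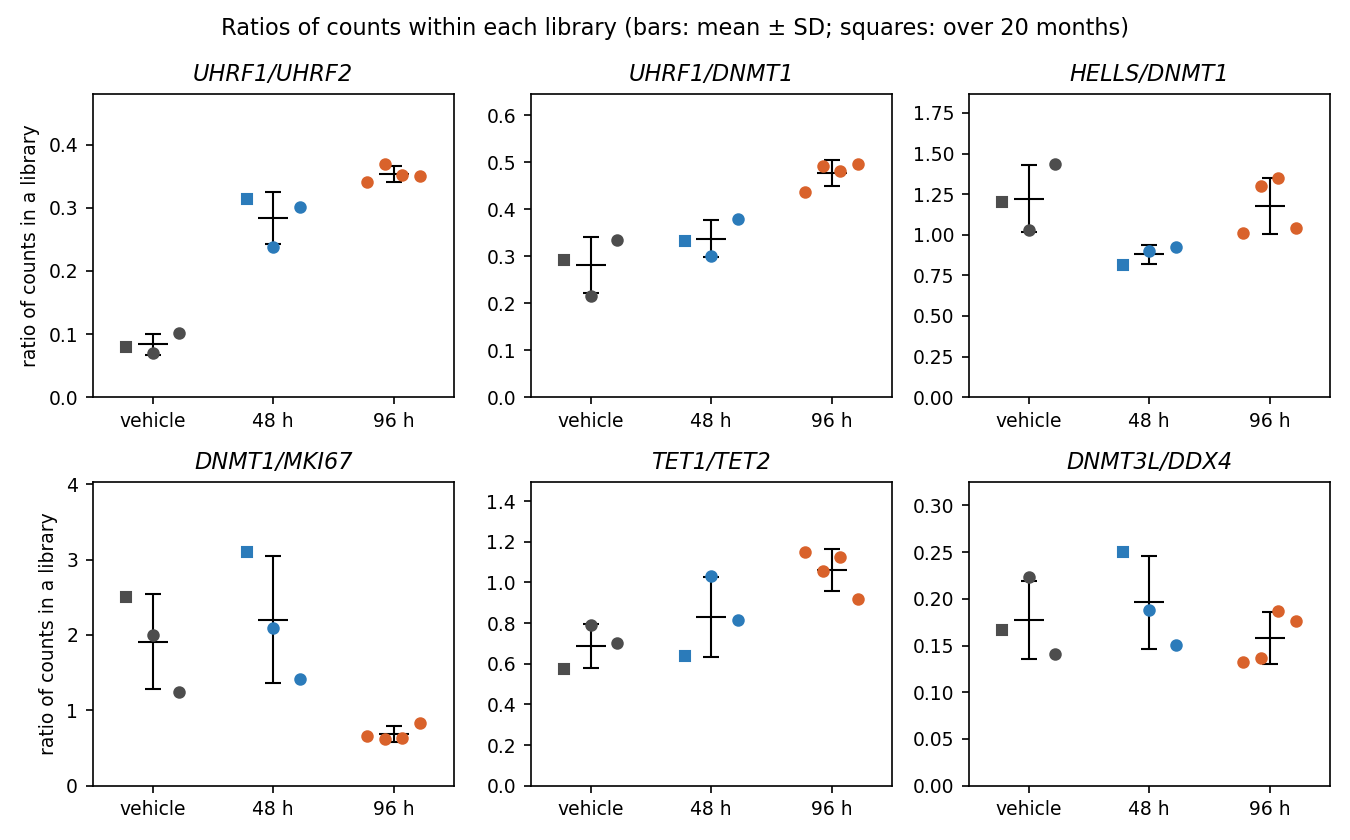
Ratios of counts of gene pairs within each library (vertical axes, from 0, no unit), by group on the horizontal axis. Points are animals, squares are animals over 20 months, and bars give the mean ± SD. The UHRF1 to DNMT1 ratio is 0.437 to 0.497 at 96 h, above all other animals, and the DNMT3L to DDX4 ratio overlaps among all groups.

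The other genes of maintenance, 9 of which were measured, gave 1 call at 48 h and 3 at 96 h, all higher. Of the loci with a symbol, 14.7% and 17.4% were called higher at these times. With upper-quartile scaling the 3 at 96 h became 2 higher and 1 lower. The median of the list was 0.11 at 48 h and 0.19 at 96 h on the log2 scale. KIAA0101, the gene of the PCNA-associated factor that helps to load DNMT1 on replicating DNA, was at 0.991 to 2.39 CPM in vehicle, 5.3 to 7.44 at 48 h and 12.1 to 16.9 at 96 h. On the log2 scale it rose by 1.83 ± 0.29 at 48 h (edgeR adjusted p = 0.0033) and 3.03 ± 0.29 at 96 h (edgeR adjusted p = 0.000219). SUV39H1, a histone methyltransferase of heterochromatin, rose by 0.92 ± 0.17 at 96 h (edgeR adjusted p = 0.00507). CDCA7, the zinc finger partner that brings HELLS to chromatin, was at 19.7 to 23.2 CPM in vehicle, 20.6 to 31.8 at 48 h and 27.1 to 34.9 at 96 h. It rose by 0.51 ± 0.15 at 96 h (edgeR adjusted p = 0.0382), and its 48 h value was 0.27 ± 0.16 (edgeR adjusted p = 0.297). USP7, a deubiquitinase that binds UHRF1 and DNMT1, had 0.08 ± 0.09 at 48 h and 0.17 ± 0.08 at 96 h (edgeR adjusted p = 0.583 and 0.154). The PCNA locus is joined with that of TMEM230 and was not used.

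Genes of DNA replication and of mitosis moved in the same libraries. Of 23 replication genes, 20 were called higher at 48 h and 20 at 96 h, beside 14.7% and 17.4% of the loci with a symbol. The median of the list was 0.77 and 0.85 on the log2 scale. Between 96 h and 48 h edgeR called 0 (median 0.05), with 6 at an unadjusted p under 0.05, and DESeq2 called 3, the exact test 1 and voom 0. Without the animals over 20 months, 9 and 20 were called against vehicle. MCM3, a subunit of the replicative helicase, had log2 fold changes of 1.45 ± 0.13 and 1.42 ± 0.12 (edgeR adjusted p = 0.000338 and 0.000147). Of 17 mitosis genes, 2 were called higher at 48 h and 16 at 96 h against vehicle (median 0.47 and 1.61). The 2 of 17 at 48 h are not above the 14.7% of loci with a symbol. The 2 at 48 h became 9 with age class as a block, and 0 with upper-quartile scaling and without the animals over 20 months, where 5 and 7 had an unadjusted p under 0.05. Over all animals DESeq2 called 5 of them at 48 h, the exact test 4 and voom 2. From 48 h to 96 h, 14 of the mitosis genes were called higher (median 1.42), beside 1.26% of the loci with a symbol. Without the animals over 20 months edgeR called 0 of them there, at a median of 1.35 and with 16 at an unadjusted p under 0.05. The summed mitosis list was at 374 to 577 CPM in vehicle, 495 to 803 at 48 h and 1501 to 1765 at 96 h. MKI67, a marker of dividing cells, was at 14.6 to 33.2 CPM, 31.9 to 63.6 and 109.1 to 154.6 in the same order. Between animals of 1 age class it was 14.6 CPM in TP07 and 31.9 in TP08, 21.7 in TP09 and 42.6 in TP10, and 33.2 in TP11 and 63.6 in TP12, higher at 48 h in each of the 3. Its log2 fold change was 0.99 ± 0.31 at 48 h (edgeR adjusted p = 0.0699), 2.61 ± 0.32 at 96 h (edgeR adjusted p = 0.000992) and 1.61 ± 0.30 between 96 h and 48 h (edgeR adjusted p = 0.0397). The part of cell division in the values of UHRF1, DNMT1 and HELLS was not tested.

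**Figure D3:**
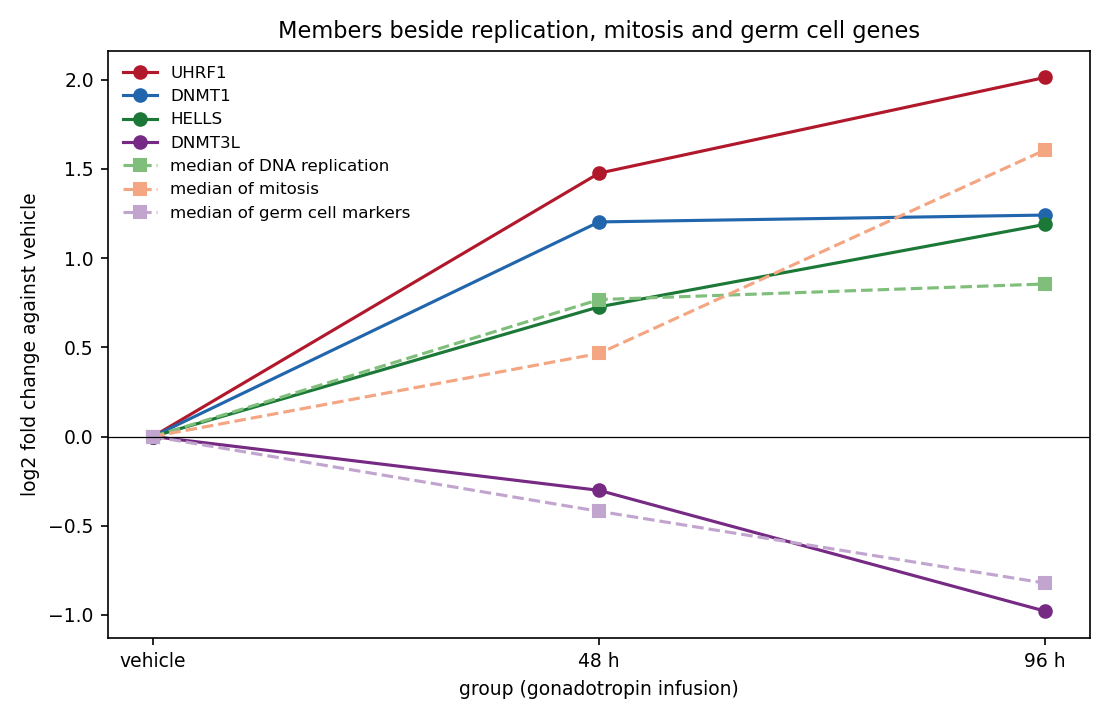
Log2 fold change against vehicle (vertical axis) in vehicle (set to 0), 48 h and 96 h animals. Solid lines are UHRF1, DNMT1, HELLS and DNMT3L, and dashed lines are the medians of 23 DNA replication, 17 mitosis and 18 germ cell marker genes. DNMT1 goes from 1.20 to 1.24 and the replication median from 0.77 to 0.85, while the mitosis median goes from 0.47 to 1.61.

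Set against these genes library by library, the maintenance members took different courses. The ratio of DNMT1 to MKI67 counts was 1.24 to 2.5 in vehicle, 1.42 to 3.1 at 48 h and 0.625 to 0.838 at 96 h. The 96 h animals were below all others, by a log2 difference of -1.43 ± 0.31 from vehicle and -1.62 ± 0.34 from 48 h (exact permutation p = 0.0571 for each). The ratio of UHRF1 to MKI67 was 0.414 to 0.731 in vehicle, 0.539 to 1.03 at 48 h and 0.289 to 0.417 at 96 h, and vehicle overlapped both gonadotropin groups. Ratios to MCM2, another subunit of the replicative helicase, were added after the data were seen. UHRF1 to MCM2 was 0.167 to 0.227 in vehicle, 0.265 to 0.275 at 48 h and 0.435 to 0.589 at 96 h, with no overlap between groups and a log2 difference of 1.43 ± 0.17 at 96 h against vehicle (exact permutation p = 0.0571). DNMT1 to MCM2 was 0.571 to 0.791, 0.725 to 0.879 and 0.994 to 1.22 in the same order, and the 96 h animals stood apart while the others overlapped. HELLS to MCM2 was 0.686 to 0.976, 0.663 to 0.794 and 1.00 to 1.65, again with the 96 h animals above the others.

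Of the de novo genes, DNMT3A was the most abundant per length, and neither it nor DNMT3B was called in any comparison. DNMT3A is on chromosome 13, from 25474042 to 25589936 on the minus strand, with 13 models and 11190 merged exon bases. It was at 68.8 CPM in TP07, 86.6 in TP09 and 76.2 in TP11, then at 102.9 in TP08, 103.6 in TP10 and 89.7 in TP12. After 96 h it had 101.7, 86.3, 90.6 and 83.8 CPM from TP15 to TP18. All 48 h animals lay above all vehicle animals, and the 96 h animals overlapped both groups. The log2 fold change at 48 h was 0.35 ± 0.11 and just missed the threshold (edgeR adjusted p = 0.0583). It passed with RLE scaling, with DESeq2, with the 2 groups alone and without TP09, where the adjusted p was 0.0386, 0.0116, 0.0465 and 0.0476. At 96 h it was 0.23 ± 0.10 (edgeR adjusted p = 0.141).

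DNMT3B, the methyltransferase mutated in a human syndrome of immunodeficiency and centromere instability, showed no change larger than the spread between animals. Its locus is on chromosome 10, from 31315815 to 31383236 on the minus strand, with 7 models and 4793 merged exon bases. Vehicle animals averaged 19.7 ± 1.46 CPM (SD over 3), the 48 h animals 19.5 ± 1.7 (SD over 3) and the 96 h animals 19.6 ± 2.5 (SD over 4). The animals ran from 18.4 to 21.3 CPM, from 18.4 to 21.5 and from 16.7 to 22.6. The log2 fold changes were -0.02 ± 0.14 at 48 h, -0.01 ± 0.13 at 96 h and 0.01 ± 0.13 between 96 h and 48 h (edgeR adjusted p = 0.946, 0.962 and 0.98), and their sign depended on the scaling of the libraries.

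DNMT3L, the cofactor of de novo methylation in germ cells, fell at 96 h. It is on chromosome 3, from 2456230 to 2470674 on the plus strand, with 5 models and 3204 merged exon bases, of which 2.9% overlap a locus on the other strand. Vehicle animals had 12.7 CPM in TP07, 14.7 in TP09 and 11.3 in TP11. The 48 h animals were uneven, with 14.6 CPM in TP08 and 7.83 and 9.0 in TP10 and TP12. After 96 h the levels were 4.79 CPM in TP15, 6.19 in TP16, 5.87 in TP17 and 9.29 in TP18, all below the vehicle group. The log2 fold change was -0.30 ± 0.28 at 48 h (edgeR adjusted p = 0.515) and -0.98 ± 0.26 at 96 h (edgeR adjusted p = 0.0275), so that the 96 h level was 0.508 of the vehicle level. Between 96 h and 48 h it was -0.68 ± 0.26 (edgeR adjusted p = 0.19). At 96 h the log2 fold change was -0.99 without the animals over 20 months and -1.20 to -0.86 when each animal was left out. The 96 h call held in 11 of 20 alternatives. It was lost with age as a covariate (adjusted p = 0.0719), with age class as a block (0.118), without the animals over 20 months (0.0555) and when TP07, TP09, TP11, TP15 or TP17 was left out, and at a threshold of 0.01.

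Germ cell markers moved in the same direction as DNMT3L. Of 18 measured, 1 was called higher and 2 lower at 48 h, and 12 were called lower at 96 h. Their median was -0.42 and -0.82 on the log2 scale. Beside this, 14.7% of the loci with a symbol were called higher and 3.32% lower at 48 h, and 6.89% lower at 96 h. The germ cell markers summed to 878 to 1070 CPM in vehicle, 619 to 821 at 48 h and 485 to 724 at 96 h. FGFR3 and GFRA1, markers of undifferentiated spermatogonia, and SOHLH1, a transcription factor of spermatogonial differentiation, fell by 0.97 ± 0.16, 1.03 ± 0.21 and 1.08 ± 0.22 on the log2 scale at 96 h (edgeR adjusted p = 0.00325, 0.00918 and 0.00928). At 48 h GFRA1 and DAZL fell by 1.67 ± 0.23 and 0.86 ± 0.17, while DMRT1, which acts in germ cells and Sertoli cells, rose by 0.81 ± 0.19 (edgeR adjusted p = 0.00181, 0.0098 and 0.0206). Without the animals over 20 months, 3 of the 18 were called lower at 96 h, at a median of -0.72, and with age class as a block 2 were. The ratio of DNMT3L to DDX4, an RNA helicase restricted to germ cells, was added after the data were seen. It was 0.142 to 0.224 in vehicle, 0.151 to 0.25 at 48 h and 0.133 to 0.187 at 96 h, and all groups overlapped. Its log2 difference was -0.15 ± 0.23 at 96 h against vehicle (exact permutation p = 0.571) and 0.14 ± 0.29 at 48 h (exact permutation p = 0.6).

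The genes that guide de novo methylation to transposons in male germ cells through small RNAs gave a like pattern, and 6 of the 9 measured are also on the germ cell list. At 48 h edgeR called 0 of 9 (median -0.38 on the log2 scale), with 2 at an unadjusted p under 0.05, and DESeq2, the exact test and voom called 0. At 96 h edgeR called 7 of 9 lower, at a median of -0.84, beside 6.89% of the loci with a symbol. MAEL, MOV10L1 and DDX4 fell by 1.04 ± 0.22, 0.95 ± 0.21 and 0.84 ± 0.18 on the log2 scale at 96 h (edgeR adjusted p = 0.011, 0.0126 and 0.0113). Without the animals over 20 months edgeR called 0 of the 9 at 96 h, at a median of -0.76 and with 7 at an unadjusted p under 0.05, and with age class as a block also 0, with 5. Other ratios to DDX4 were also added after the data were seen. UHRF1, DNMT1 and HELLS were higher relative to DDX4 in every gonadotropin animal than in every vehicle animal. The UHRF1 to DDX4 ratio was 0.14 to 0.172 in vehicle, 0.565 to 0.644 at 48 h and 0.864 to 1.48 at 96 h. Its log2 difference from vehicle was 1.98 ± 0.11 and 2.89 ± 0.19 (exact permutation p = 0.1 and 0.0571). TET1 to DDX4 was 0.603 to 1.095 in vehicle and 1.101 to 2.785 at 96 h. These ranges only just failed to overlap, with 1.101 in TP18 against 1.095 in TP09. The mean log2 difference was 1.2 ± 0.43 (exact permutation p = 0.0571). For TET2 to DDX4 these groups overlapped.

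**Figure D4:**
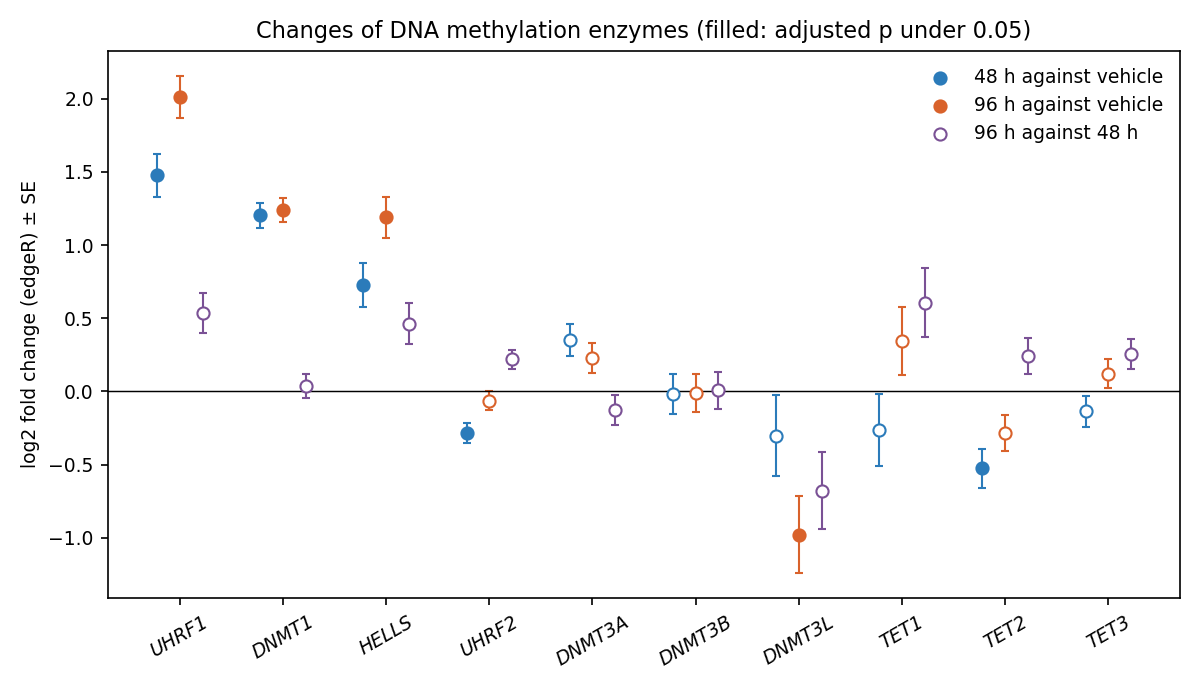
Log2 fold changes ± SE from edgeR (vertical axis) of the 10 members in the 3 comparisons (colours). Filled points have an adjusted p under 0.05: UHRF1, DNMT1 and HELLS in both comparisons with vehicle, UHRF2 and TET2 at 48 h and DNMT3L at 96 h.

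The removal enzymes gave 1 call among 9 tests. TET2 is on chromosome 5, from 105087596 to 105220342 on the minus strand, with 7 models and 12492 merged exon bases, and it lacks the DNA-binding domain that TET1 and TET3 carry. Vehicle animals had 79.8 CPM in TP07, 91.3 in TP09 and 83.3 in TP11. The 48 h animals were close to each other, at 59.4 CPM in TP08, 60.0 in TP10 and 57.4 in TP12. Levels at 96 h were spread, with 81.8 CPM in TP15, 56.1 in TP16, 77.5 in TP17 and 63.1 in TP18, and overlapped both other groups. TET2 fell by 0.52 ± 0.13 on the log2 scale at 48 h (edgeR adjusted p = 0.0258), a call that 12 of 19 alternatives kept. It was lost without the animals over 20 months (adjusted p = 0.118) and when TP09, TP11, TP08, TP10 or TP12 was left out, and at a threshold of 0.01. The 48 h log2 fold change of TET2 was -0.57 without the animals over 20 months and -0.57 to -0.47 when each animal was left out. At 96 h its log2 fold change was -0.28 ± 0.12 (edgeR adjusted p = 0.129), and upper-quartile scaling called it (adjusted p = 0.0208).

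TET1, which binds CpG-rich DNA, was called in no comparison, and its groups overlapped. It is on chromosome 9, from 63877934 to 64019449 on the minus strand, with 8 models and 12745 merged exon bases. Its level was 45.8, 72.0 and 58.5 CPM in TP07, TP09 and TP11, and 37.9, 61.9 and 46.9 in TP08, TP10 and TP12. At 96 h it was 93.9 CPM in TP15, 59.1 in TP16, 87.4 in TP17 and 57.9 in TP18. The 14-month animals TP09 and TP10 were the highest of their groups. TP15 and TP17, highest at 96 h for both TET1 and TET2, also had the lowest library totals (21998786 and 21824233 counts) and the lowest DDX4 levels (36.1 and 31.4 CPM). They were the highest of their group as well for MYH11, a smooth muscle myosin (873 and 722 CPM against 286 in TP16 and 458 in TP18), and for C1QB, a macrophage gene (53.4 and 64.7 CPM against 29.5 and 43.1). Not every marker of these lists did so. CNN1 was lowest in TP17 (26.9 CPM), ACTA2 in TP15 (109.5) did not exceed TP16 (109.9), and CD163 in TP15 (61.4) was below TP18 (64.9). C1QB was also highest in TP09 and TP10 within their groups, at 26.3 and 47.6 CPM. The macrophage gene CSF1R was highest in neither, and MYH11 in TP09 (270.9 CPM) was the lowest of the vehicle group. The part of library totals and of cell types in the TET values was not tested. The log2 fold changes of TET1 were -0.27 ± 0.25 at 48 h, 0.34 ± 0.23 at 96 h and 0.61 ± 0.23 between 96 h and 48 h (edgeR adjusted p = 0.519, 0.322 and 0.19).

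TET3, the enzyme that in mice oxidises the paternal genome after fertilisation, is on chromosome 13, from 74987886 to 75116188 on the plus strand, with 6 models and 12883 merged exon bases. It stayed between 23.3 and 31.9 CPM in all 10 animals. Its log2 fold changes were -0.14 ± 0.11 at 48 h and 0.12 ± 0.10 at 96 h (edgeR adjusted p = 0.441 and 0.419), and the 96 h value turned to -0.03 with upper-quartile scaling. The 3 enzymes summed to 151.9 to 191.7 CPM in vehicle, 125.2 to 145.2 at 48 h and 147.1 to 206.0 at 96 h, so the 48 h animals lay below the vehicle animals and the 96 h animals overlapped them.

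Within libraries the mixture of TET transcripts differed between groups. The ratio of TET1 to TET2 was 0.574 to 0.789 in vehicle, 0.639 to 1.03 at 48 h and 0.917 to 1.15 at 96 h. The 96 h animals lay above the vehicle animals, by a log2 difference of 0.63 ± 0.15 (exact permutation p = 0.0571), and overlapped the 48 h animals. The ratio of TET3 to TET2 was 0.311 to 0.333 in vehicle, narrower than in the other groups, 0.388 to 0.47 at 48 h and 0.353 to 0.569 at 96 h. It was higher in every gonadotropin animal than in every vehicle animal, by 0.38 ± 0.09 at 48 h and 0.42 ± 0.16 at 96 h on the log2 scale (exact permutation p = 0.1 and 0.0571). The ratio of DNMT1 to DNMT3A, maintenance over de novo, was 0.499 to 0.541 in vehicle, 0.86 to 1.01 at 48 h and 0.95 to 1.12 at 96 h, a log2 difference of 0.85 ± 0.08 and 1.01 ± 0.06 (exact permutation p = 0.1 and 0.0571).

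Per kilobase of merged exons, the order of the members changed with treatment. In vehicle UHRF2 stood first at 17.1 CPM per kb, clear of HELLS at 7.7, DNMT1 at 7.05, DNMT3A at 6.9 and TET2 at 6.79, which overlapped their neighbours in the order. TET1 at 4.61, DNMT3B at 4.12 and DNMT3L at 4.03 came next with overlap, and TET3 at 2.13 and UHRF1 at 2.08 were last and overlapped. At 48 h DNMT1 was first at 16.2 CPM per kb, then UHRF2 at 14.1 and HELLS at 12.7, each separate from the next, and UHRF1 at 5.8 was now above all TET genes, DNMT3B and DNMT3L. At 96 h HELLS at 17.5, DNMT1 at 16.7 and UHRF2 at 16.4 CPM per kb overlapped at the top, UHRF1 at 8.4 overlapped DNMT3A at 8.1, and DNMT3L was last at 2.04, overlapping TET3 at 2.32. These levels depend on the deposited transcript models, since 19 of 30 moved by more than 1 SD when the longest model was used for the length. With that length HELLS at 48 h, at 17.1 CPM per kb (16.9 to 17.5), lay above UHRF2 at 15.9 (15.1 to 16.4) and overlapped DNMT1 at 17.2 (16.5 to 18.3). At 96 h HELLS, at 23.6 CPM per kb, then lay above UHRF2 at 18.6 and DNMT1 at 17.6 with no overlap.

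**Figure D5:**
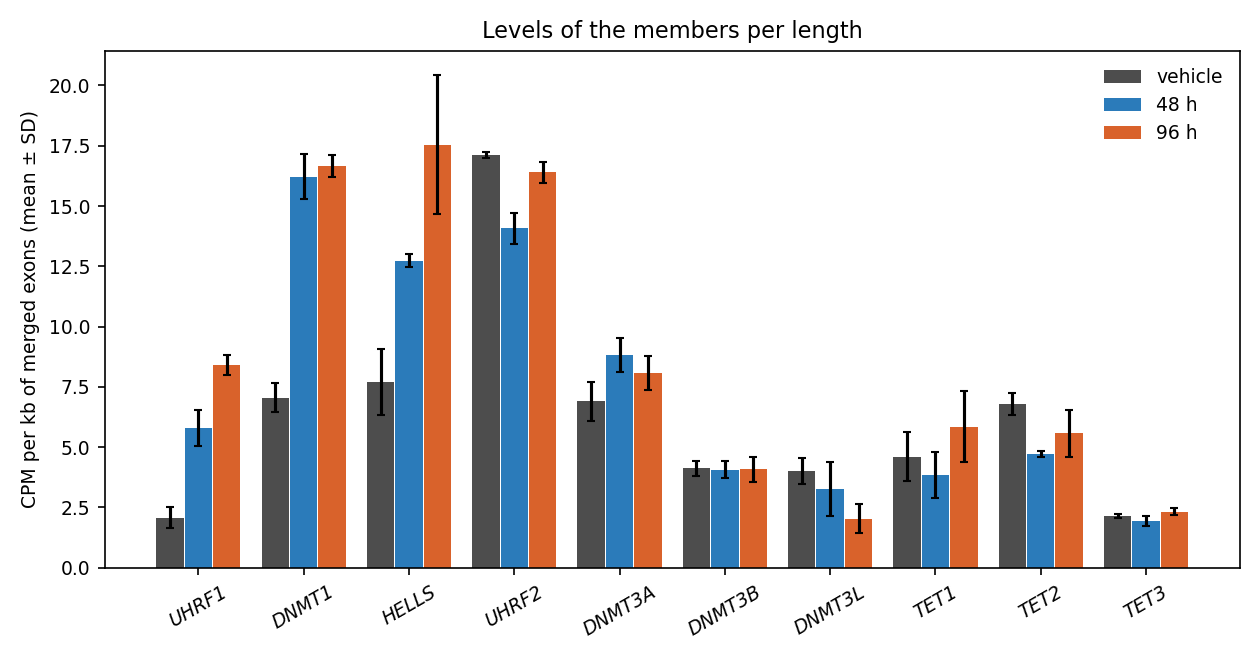
Mean CPM per kb of merged exons (vertical axis, from 0) of the 10 members in vehicle (n = 3), 48 h (n = 3) and 96 h (n = 4) animals, with SD as error bars. UHRF2 leads in vehicle at 17.1, and HELLS, DNMT1 and UHRF2 overlap at 96 h at 17.5, 16.7 and 16.4.

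The animals of 14 months allow the groups to be set side by side at 1 age, with 1 vehicle animal, 1 animal at 48 h and 4 at 96 h, so no test was made. UHRF1 was at 9.34, 26.8 and 42.3 to 47.6 CPM in these animals. DNMT1 was at 43.3, 89.1 and 91.4 to 96.7 CPM, and HELLS at 44.5, 80.4 and 95.3 to 130.3 CPM. DNMT3L was at 14.7, 7.83 and 4.79 to 9.29 CPM. The direction of these 4 genes against vehicle was the same at this age as over all animals. TET2 was at 91.3, 60.0 and 56.1 to 81.8 CPM and UHRF2 at 133.7, 113.0 and 124.1 to 132.3 CPM, also below the vehicle animal of that age.

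Of 10 genes for excision of oxidised cytosine, which act downstream of TET, 1 was called higher at 48 h and 3 at 96 h, beside 14.7% and 17.4% of the loci with a symbol. PARP1, a sensor of DNA breaks, was the call at 48 h, at 0.39 ± 0.09 on the log2 scale (edgeR adjusted p = 0.0164). It was lost with upper-quartile scaling, where 0 of the list were higher and 1 lower, and without the animals over 20 months, where edgeR called 0 with 2 at an unadjusted p under 0.05. Over all animals DESeq2 called 3 of the list at 48 h, the exact test 2 and voom 1. At 96 h NEIL3, a glycosylase, rose by 1.69 ± 0.31, XRCC1, a repair scaffold, by 0.33 ± 0.09 and PARP1 by 0.29 ± 0.08 (edgeR adjusted p = 0.00542, 0.0358 and 0.0364). With upper-quartile scaling the 3 higher of the list at 96 h became 1 higher and 1 lower. They became 2 higher with age class as a block and 1 higher without the animals over 20 months. APEX1, an endonuclease, was lower at 96 h than at 48 h, by -0.45 ± 0.08 (edgeR adjusted p = 0.0271). That call was lost with age class as a block, where 1 of the list was higher and 0 lower, and without the animals over 20 months, where edgeR called 0 with 3 at an unadjusted p under 0.05. Over all animals DESeq2, the exact test and voom each called 2 of the list between 96 h and 48 h. TDG, the glycosylase that removes the oxidised bases, had 0.04 ± 0.10 at 48 h and 0.14 ± 0.09 at 96 h (edgeR adjusted p = 0.851 and 0.309). The median log2 fold change of the list was 0.11 at 48 h and 0.07 at 96 h. Of 7 methyl-CpG binding genes 1 was called at each time, beside the same background. It was MBD3, a subunit of the NuRD complex that binds methylated DNA weakly, with 0.70 ± 0.10 at 48 h and 0.43 ± 0.10 at 96 h (edgeR adjusted p = 0.00224 and 0.0138), and the medians were -0.04 and 0.10. The 96 h call of MBD3 was lost with upper-quartile scaling, where edgeR called 0 of the 7 with 2 at an unadjusted p under 0.05.

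Among 15 regulators of TET and DNMT3 proteins, 2 were called higher at 48 h, beside 14.7% of the loci with a symbol. IDH1 and IDH2, which make the oxoglutarate that TET enzymes use, rose by 0.49 ± 0.08 and 0.75 ± 0.13 on the log2 scale (edgeR adjusted p = 0.00481 and 0.00534). At 96 h 3 were called higher and 3 lower: IDH2 and IDH1 rose by 0.96 ± 0.13 and 0.43 ± 0.08, and CXXC5, a CpG-binding protein that interacts with TET2, fell by 0.47 ± 0.11 (edgeR adjusted p = 0.00098, 0.00569 and 0.0156). QSER1, which protects methylation valleys together with TET1 in human stem cells, was higher at 96 h than at 48 h by 0.49 ± 0.10, as was SETD2, a histone methyltransferase, by 0.42 ± 0.08 (edgeR adjusted p = 0.0417 and 0.0432). Both of these calls were lost with upper-quartile scaling, with age class as a block and without the animals over 20 months, where edgeR called 0 of the 15 with 4, 3 and 4 at an unadjusted p under 0.05. Over all animals DESeq2, the exact test and voom each called 2 of them there. Of the loci with a symbol, 17.4% were called higher and 6.89% lower at 96 h. The 3 higher and 3 lower at 96 h became 2 and 5 with upper-quartile scaling, and 2 and 0 both with age class as a block and without the animals over 20 months. The medians were -0.11 at 48 h, 0.02 at 96 h and 0.07 between them.

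The supply of methyl groups gave 6 of 15 genes called higher at 48 h, and 6 higher and 1 lower at 96 h, with medians of 0.17 and 0.02. Of the loci with a symbol, 14.7% were called higher and 3.32% lower at 48 h, and 17.4% and 6.89% at 96 h. The 1 lower gene is thus near the background. MTHFD1, an enzyme of the folate cycle, and AHCY, which removes adenosylhomocysteine, rose by 0.83 ± 0.09 and 0.78 ± 0.10 on the log2 scale at 48 h (edgeR adjusted p = 0.000688 and 0.00133). MTHFD1 and MTHFD2 rose by 0.80 ± 0.09 and 1.28 ± 0.14 at 96 h (edgeR adjusted p = 0.000375 and 0.000442). MAT2A, which makes the methyl donor itself, had 0.17 ± 0.09 at 48 h and 0.02 ± 0.09 at 96 h (edgeR adjusted p = 0.248 and 0.913). Without the animals over 20 months 5 genes were called higher at 48 h, and 4 higher and 0 lower at 96 h. With age class as a block 6 were higher at 48 h, and 4 higher and 0 lower at 96 h. Upper-quartile scaling gave 5 higher at 48 h, and 5 higher and 1 lower at 96 h.

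Imprinted genes, whose parental methylation the maintenance enzymes preserve, gave 4 higher and 1 lower of 17 at 48 h, and 5 higher and 1 lower at 96 h, with medians of 0.30 and 0.56. DLK1, expressed from the paternal copy, was at 44.2 to 46.7 CPM in vehicle, 106.1 to 150.2 at 48 h and 106.6 to 151.3 at 96 h, with log2 fold changes of 1.57 ± 0.16 and 1.52 ± 0.15 (edgeR adjusted p = 0.00049 and 0.000259). MEST rose by 0.81 ± 0.19 and GRB10 fell by 0.60 ± 0.16 at 48 h (edgeR adjusted p = 0.0222 and 0.0327). NDN and GNAS rose by 0.48 ± 0.09 and 0.56 ± 0.11 at 96 h (edgeR adjusted p = 0.00511 and 0.00822). The counts do not separate the parental copies. Of the loci with a symbol, 14.7% and 17.4% were called higher at these times, and 3.32% and 6.89% lower. With upper-quartile scaling 2 were higher and 3 lower at 48 h, and 5 higher and 2 lower at 96 h. Age class as a block gave 3 higher and 0 lower at both times. Without the animals over 20 months, 1 was called higher at 48 h and 4 at 96 h, and 0 lower.

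The genes with the most similar course to each member were found by the root mean square difference of centred log2 CPM over the 10 libraries, among 11487 other genes with a mean of at least 5 CPM. It is a description of these libraries, which share the treatment. UHRF1 was closest to ZNF367, a zinc finger gene (0.178), CDC6, which loads the replicative helicase (0.179), and NRM, an inner nuclear membrane protein (0.19), beside a median of 0.824 over all others. HELLS was closest to ATAD5, which unloads the PCNA clamp (0.076), POLE, a replicative polymerase (0.0982), and E2F3, a cell cycle transcription factor (0.102), beside a median of 0.517. DNMT1 was closest to EMC9 (0.0958), APOBEC3C (0.103) and FAM127A (0.116), beside 0.553. DNMT3L was closest to MARCH10 (0.176), NXF2, an RNA export factor (0.176), and ARHGEF16 (0.179), beside 0.574. TET1 was closest to PTPRS, DNASE2 and ZNF704 (0.087 to 0.101) and TET2 to TRIM8, DLG2 and ZNF521 (0.0688 to 0.0937). For UHRF2, DNMT3A, DNMT3B and TET3, whose own SD was 0.12 to 0.18 log2 units, the nearest genes were ARIH1, PI4KA, CBL and PLAGL2.

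The authors' deposited table called 4 members at 48 h against vehicle at a false discovery rate under 0.05, namely UHRF1, DNMT1, HELLS and TET2. It called UHRF1, DNMT1, HELLS and DNMT3L at 96 h and 0 members between 96 h and 48 h. In the authors' deposited table UHRF2 had a false discovery rate of 0.222 at 48 h.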

How the data were processed

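The submitters' processing notes name HTSeq 0.6.1p1, Cufflinks 2.2.1, edgeR, Bowtie2 2.2.8, cutadapt 1.9.1 and TopHat2 2.1.1 on rheMac8, with no role or order. The strand setting of the counting is not given in the sources used here. For each animal the deposited table gives raw counts by locus, beside the authors' own CPM, log2 fold changes and p-values, and merged transcript models with exon limits were also deposited. The authors' deposited CPM were not used. CPM here were computed from the counts with TMM scaling, and the authors' log2 values and p-values appear only where their table is named. A second table of deposited CPM gave gene symbols only, UHRF1 among them, because its locus has a joined name. The table was checked to hold only loci with a CPM of at least 1 in 3 or more libraries. Coordinates are exon limits on rheMac8. The sequences of the models are named by accession and were matched to chromosomes through gene symbols shared with the reference gene table, of which at least 99.6% lay on 1 chromosome for each member's sequence.

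The main test was edgeR 4.0.16 (R 4.3.3) with TMM, robust glmQLFit and glmQLFTest in 1 fit of 3 group means over 26813 loci, with Benjamini-Hochberg adjustment at 0.05. The biological coefficient of variation was 0.259. Ratios of counts were compared with exact permutation tests, two-sided, adjusted over 54 tests. Python 3.11.15, pandas 2.3.3, numpy 2.4.6, scipy 1.17.1, matplotlib 3.10.9, limma 3.58.1 and DESeq2 1.42.0 were also used. Likeness used a pseudocount of 0.5 CPM. Replicate pairs differed by more than sampling noise (chi-square per degree of freedom 15.8 to 49.9), so each library is 1 replicate. Count limits cover counting error only.

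All 10 members are named in every comparison. Of each other list, counts, medians and up to 3 called genes with the smallest p are given, with MKI67 and CDCA7 in each comparison, and USP7, TDG and MAT2A were named after their values were seen. A gene that this rule also named is not reported here. The members and lists were chosen with earlier results of these data known. Alternatives covered scaling, filters, tests, age, thresholds, summed loci and omission of animals.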

Additional observations from a re-analysis of the deposited data

Results flagged for a closer look

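A test for a sample far from the others was run on the 4 animals of the 96 h group, over 28 measures (10 member levels and 18 ratios), and chance flags about 1 in 20. It picked out 4. DNMT1 at 91.4 CPM in TP18 was below the other 96 h animals, which were at 96.5 to 96.7 CPM. The UHRF1 to MKI67 ratio of 0.417 and the DNMT1 to MKI67 ratio of 0.838, both in TP18, were above the other 96 h animals, where MKI67 itself was at 109.1 CPM in TP18 and 146.2 to 154.6 CPM in the others. The DNMT1 to MCM2 ratio of 1.22 in TP17 was above the others at 0.994 to 1.02.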

How the results depend on the processing

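The 5 members called at 48 h became 2 without the animals over 20 months and 2 at an adjusted p under 0.01, and ranged from 3 to 4 when each animal was left out. The 4 at 96 h ranged from 3 to 4 when each animal was left out. The 0 between 96 h and 48 h became 2 with DESeq2 (UHRF1 and UHRF2), 1 with the exact test and 1 with age class as a block (UHRF1 in both). Of 590 member fold changes under alternatives, 531 kept direction and side of the threshold, 27 lost the call, 9 gained it and 23 changed sign, all of them uncalled values. The 531 include values from the low-count filter, which dropped 0 loci and so could change no call. They also include values from summed loci, where the members' own counts stayed the same. Both therefore add little weight to the count of values kept. DNMT3B at 48 h was 0.0105 with RLE scaling, 0.01 with DESeq2 and 0.0264 with the 2 groups alone, and -0.0925 to 0.0389 when each animal was left out. At 96 h it was 0.0047 with RLE scaling, 0.0061 with DESeq2, 0.0714 with age as a covariate, 0.074 with age class as a block, 0.0463 without the animals over 20 months and -0.0942 to 0.0588 when each animal was left out. Between 96 h and 48 h it was -0.0058 with RLE scaling, -0.0104 with upper-quartile scaling, -0.0039 with DESeq2, -0.0092 with the 2 groups alone and -0.071 to 0.0816 when each animal was left out. TET3 at 96 h was -0.0262 with upper-quartile scaling. The cause was not tested in these cases.

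Upper-quartile scaling moved the median of all loci from -0.07 to -0.20 at 48 h. At 96 h that median went from -0.01 to -0.16. Loci called higher and lower went from 2288 and 985 to 1392 and 1732 (48 h) and from 2836 and 1848 to 1687 and 3532 (96 h). Loci called at 48 h went from 3273 to 5079 with DESeq2, 852 without the animals over 20 months, 1238 at the stricter threshold and 1564 without TP08. At 96 h they went from 4684 to 3073 with age as a covariate, 1762 with age class as a block, 1941 without the animals over 20 months, 1520 at the stricter threshold and 2210 without TP07. Between 96 h and 48 h, 286 became 1827 with DESeq2, 888 with the exact test, 97 with age as a covariate, 178 with age class as a block, 3 without the animals over 20 months and 2 without TP08.

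Of 295 list counts, 52 moved by over 1.5 times. All 468 ratio differences under alternatives lay within 1 SD between animals of the reported value. In groups of this size, leaving 1 animal out cannot move a difference of means that far. The leave-one-out part of this count is therefore no test of the ratios. None changed direction where the groups did not overlap, but omitting animals cannot reverse such groups, so this is no test either. Overlapping ratios could change sign within 1 SD, and no p was computed for the alternatives. Of the levels per length, 19 of 30 moved with the longest model. The planned ratios to PCNA and the planned sequence description were not run. No paired analysis was possible by replicate number because the groups share none. Age class as a block, which sets TP07 beside TP08, TP09 beside TP10 and TP11 beside TP12, called 5 members at 48 h, 3 at 96 h and 1 between 96 h and 48 h. DNMT3L, at 99 to 432 counts, has the least depth of the members.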
